A study of Homo sapiens with 4 samples.

Results

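The T-cell receptor complex and the signalling genes next to it were examined in Jurkat cells, a long-used human line grown from a T-cell acute lymphoblastic leukemia, after 1 round of migration through 3 μm pores. The list held 50 genes, taken by gene symbol: the chains of the receptor, its coreceptors, costimulatory and SLAM receptors, and the kinases, adaptors and effectors that act close to them. Of these, 48 had a probe set on the arrays, among 21448 probe sets in all. PDCD1 and GRAP2 have no probe set listed under their symbol and were not analysed here. Each gene had only 1 probe set, so that the choice of the one with the highest mean changed nothing.

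A T cell reads antigen through a receptor whose antigen-binding chains have almost no cytoplasmic part, and the signal is carried into the cell by the CD3 chains and by the zeta chain CD247. The kinase LCK, brought close by the coreceptors CD4 or CD8, phosphorylates these chains, ZAP70 binds to them and phosphorylates the scaffold LAT together with LCP2. From this scaffold PLCG1 raises calcium, which activates the NFAT factors, RASGRP1 opens the route to Ras, and BCL10 with MALT1 opens the route to NF-κB. Much of this order of events was worked out in Jurkat cells and their mutants.

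RNA was measured on human Clariom S arrays in 2 samples of ORM (one-round migration) Jurkat cells and in 2 samples of control Jurkat cells, called biological replicates by the labels. ORM cells were those collected below the pores of Transwell inserts after 24 h, and control cells had not migrated. By the labels, control cells grew in suspension in medium with serum, and by the series design they are non-migrated cells. The description given with each of the 4 arrays speaks of other treatments. Groups were taken from the titles, which name ORM or control as the source names and the design do. Both groups are 1 cell line, and no label says whether the replicates came from separate cultures, so that the p-values may reflect technical spread only. With 2 arrays in each group the smallest two-sided p of an exact permutation test is 0.333.

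Values are log2 signals as deposited, and a difference of 1 is a 2-fold difference. The threshold was that of the study, a fold change over 1.8, which is 0.848 on the log2 scale, together with an unadjusted p under 0.05, here from limma. No probe set had an adjusted p under 0.05 (lowest 0.428), while 2447 had an unadjusted p under 0.05. Control replicate 2 stood apart, since over all probe sets the ORM arrays differed from each other with an SD of 0.248 (log2) and the control arrays with an SD of 0.404. The ORM arrays differed from control replicate 1 with SDs of 0.292 and 0.339, and from control replicate 2 with SDs of 0.435 and 0.448. The lower quartiles of the arrays lay between 4.14 and 4.26, and signals below them are called dim here. Of 12 markers of T cells, 11 had a probe set and none of these was dim in all 4 arrays (8 of them are also genes of the list). They averaged 9.38 and 9.41 (log2) in ORM cells and 9.42 and 9.44 in control cells. At an unadjusted p under 0.05 from limma, CD3D was higher and CD247 and GATA3, a transcription factor of T-cell development, were lower, GATA3 by a log2 difference of -0.57 (unadjusted p = 0.0152).

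ORM cells had more signal of TREML2 and MALT1 and less signal of CD48 than control cells. These were the 3 of 48 genes past the threshold (6.25%, against 0.704% of all probe sets), 2 higher (against 0.424% of all probe sets) and 1 lower (against 0.28%). The list was chosen with earlier results of these data known, and the study names TREML2 and CD48 among its altered genes from these arrays. The larger share is therefore no evidence about the genes as a set. At an unadjusted p under 0.05 alone there were 8 of 48 (16.7%, against 11.4% of all probe sets), with CD3D, FYN, MALT1 and TREML2 higher (against 5.91% of all probe sets) and CD48, CD247, PTPRC and NFATC2 lower (against 5.5%). The split depended on the setting. With quantile normalization 3 genes were higher and 5 lower at this p (against 10% of all probe sets), with FYN lost and RASGRP1 added. With centring of each array on its median 4 were higher and 2 lower (against 11.9%), with PTPRC and NFATC2 lost. An equal-variance test of each gene alone gave 5 higher (CBL, CD28, CD3D, FYN and MALT1) and 1 lower (CD5), against 8.61% of all probe sets. None of the 4 lower genes above was among them. Without control replicate 1 the median log2 difference of the 48 genes was -0.005, and without control replicate 2 it was 0. Over all probe sets it was -0.025 in both. The other 40 did not pass either rule, and 30 of the 48 differed by less than 0.25 (62.5%, against 59.8% of all probe sets). The median log2 difference of the 48 genes with all 4 arrays was -0.03, beside -0.04 over all probe sets. With centring it was 0.025, beside 0.0175 over all probe sets. Only MALT1 passed the threshold without control replicate 2, and no gene of the list did without ORM replicate 1. In RNA of pooled cells, fewer cells with a transcript and less of it per cell cannot be told apart. ORM cells were only those that had crossed the pores, so that selection of such cells and a change within them cannot be told apart.

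**Figure D1:**
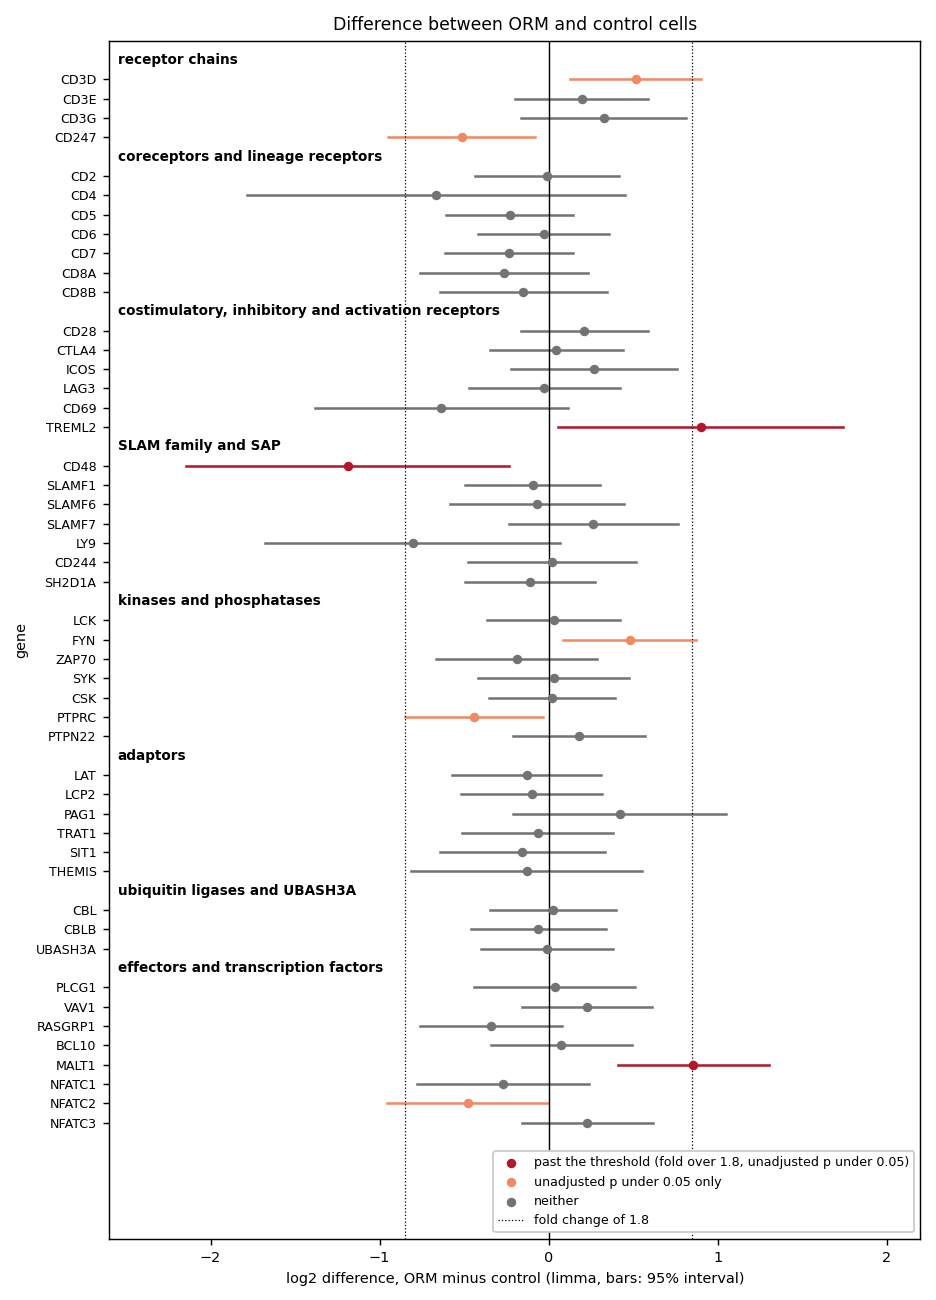
Log2 difference between ORM and control cells for each of the 48 measured genes, by class, from limma (points: ORM minus control, bars: 95% interval, dotted lines: fold change of 1.8). Dark red marks CD48, TREML2 and MALT1, past the threshold, orange the 5 further genes with an unadjusted p under 0.05, and grey the remaining 40, whose bars all cross 0.

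Among the receptor chains, the 3 CD3 genes lay higher and CD247 lower in ORM cells. The groups did not overlap in any of the 4, as was also so in 45.6% of all probe sets. CD3D, the delta chain, had log2 signals of 10.56 and 10.71 in ORM cells and 10.10 and 10.14 in control cells. Each pair lay within 0.15, and the log2 difference was 0.515 (standard error 0.16, unadjusted p = 0.0167, adjusted p = 0.428 from limma). CD3E, the epsilon chain, had 11.37 and 11.47 in ORM cells and 11.15 and 11.30 in control cells, and CD3G, the gamma chain, had 11.13 and 11.17 in ORM cells and 11.06 and 10.59 in control cells. Their log2 differences of 0.195 (95% interval -0.20 to 0.59) and 0.325 (95% interval -0.16 to 0.81) did not pass the test. CD247, the zeta chain, which holds most of the tyrosine motifs of the complex and joins it last on the way to the surface, had 8.68 and 8.67 in ORM cells and 9.02 and 9.36 in control cells. Its log2 difference was -0.515 (standard error 0.18, unadjusted p = 0.0273, adjusted p = 0.428 from limma). Without control replicate 2, CD3D differed by 0.535 (unadjusted p = 0.0291 from limma), CD247 by -0.345 (unadjusted p = 0.0581 from limma) and CD3G by only 0.09 (unadjusted p = 0.502 from limma). CD3G rested on control replicate 2, and without control replicate 1 it differed by 0.56 (unadjusted p = 0.0169 from limma). By the equal-variance test of the gene alone CD247 had an unadjusted p of 0.0939. None of the 4 chains reached a fold change of 1.8, and the antigen-binding chains were not analysed here, since no probe set is listed under TRAC, TRBC1 or TRBC2.

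The promoters of these oppositely placed chains are shown because CD3D and CD247 were the receptor chains past an unadjusted p of 0.05. Each is the 250 bases before the gene's start in RefSeq (GRCh38.p14), read on the gene's strand, CD3D at chr11:118342706-118342955 and CD247 at chr1:167518530-167518779, both on the minus strand. Capitals mark matches, on either strand, to 7 short motifs. These were CCGGAA, bound by ETS factors, TGTGGT, bound by RUNX factors, GGAAAA, bound by NFAT factors, AGATAA, bound by factors of the GATA family, CTTTGA, bound by the factors TCF and LEF, TGACGT, the core of a cAMP response element, and TATAAA, the TATA box.
CD3D: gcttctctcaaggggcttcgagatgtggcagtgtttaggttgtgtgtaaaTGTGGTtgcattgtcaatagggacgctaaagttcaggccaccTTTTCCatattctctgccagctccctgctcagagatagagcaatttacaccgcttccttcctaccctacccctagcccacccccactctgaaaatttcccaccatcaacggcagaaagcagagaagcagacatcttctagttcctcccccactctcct
CD247: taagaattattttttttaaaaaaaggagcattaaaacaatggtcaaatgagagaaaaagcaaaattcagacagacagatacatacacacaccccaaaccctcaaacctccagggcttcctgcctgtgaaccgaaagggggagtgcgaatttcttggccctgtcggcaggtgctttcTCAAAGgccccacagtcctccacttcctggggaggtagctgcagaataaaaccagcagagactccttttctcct
The CD3D window held a RUNX match, found in 10.9% of the 27305 promoters of the table, and an NFAT match, found in 21.4%. The CD247 window held 1 TCF/LEF match, found in 11.4% of them. Neither held an ETS, GATA or TATA match. A match is a run of letters and was not tested as a binding site.

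The coreceptors and lineage receptors, which identify the cell as a T cell or lend LCK to the receptor, had log2 differences between -0.665 and -0.01, and none of the 7 passed the test. Their direction was not shared under every setting, since CD2 was at 0.06 with quantile normalization and 0.04 with centring, CD6 at 0.02 with centring and 0.045 without control replicate 2, and CD8B at 0.09 without control replicate 1. CD7 and CD5, a receptor that damps the signal, were the members with no overlap between the groups (28.6%, against 45.6% of all probe sets). CD7 had log2 signals of 8.42 and 8.52 in ORM cells and 8.73 and 8.68 in control cells, and CD5 had 9.32 and 9.29 in ORM cells and 9.51 and 9.56 in control cells. These are log2 differences of -0.235 (95% interval -0.62 to 0.15) and -0.23 (95% interval -0.60 to 0.14). CD4 had 6.37 and 6.36 in ORM cells and 6.24 and 7.82 in control cells. Only control replicate 2 was far from the others, so that the log2 difference of -0.665 became 0.125 without it. CD8A had 4.77 and 4.47 in ORM cells and 5.08 and 4.69 in control cells, and CD8B had 5.12 and 5.04 in ORM cells and 5.47 and 4.99 in control cells, with overlap in both genes. The log2 differences of CD6 and CD2, a receptor for CD58 on other cells, were -0.03 and -0.01, with 95% intervals within 0.44 of 0.

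**Figure D2:**
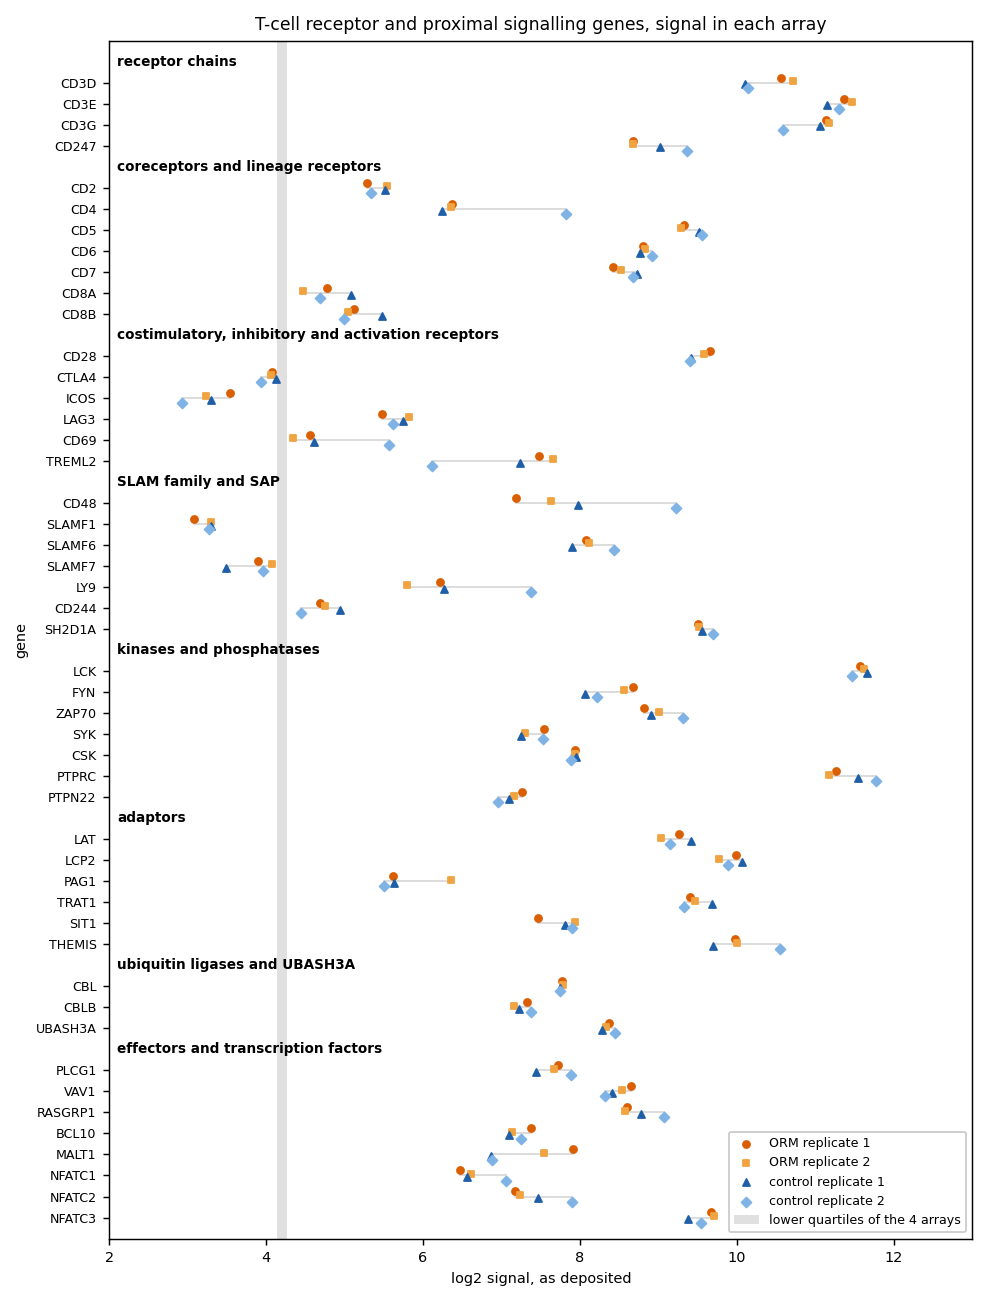
Log2 signal of the 48 measured genes in each array (orange: ORM replicates, blue: control replicates, each gene a row, classes in bold), with the lower quartiles of the 4 arrays as a grey band. The ORM arrays of CD3D and MALT1 lie to the right of tightly placed control arrays, while control replicate 2 lies far from the other arrays in CD4, CD48, LY9, TREML2 and CD69.

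TREML2 was the receptor that rose in ORM cells. This member of the TREM family of surface receptors is found on myeloid and lymphoid cells. Its log2 signals were 7.48 and 7.66 in ORM cells and 7.23 and 6.11 in control cells, with no overlap. The log2 difference was 0.90 (standard error 0.35, unadjusted p = 0.0397, adjusted p = 0.428 from limma). Control replicate 1 lay 0.34 below the ORM mean and control replicate 2 lay 1.46 below it, and without control replicate 2 the unadjusted p was 0.101 from limma. Without ORM replicate 1 or ORM replicate 2 it was 0.113 and 0.176, and by an equal-variance test of the gene alone with all 4 arrays it was 0.253, none past the threshold. The study lists both TREML2 and CD48 among its altered genes from these same arrays, so that their place past the threshold is no independent evidence. Of 8 markers of myeloid cells, 7 were measured, with a mean log2 signal of 4.8 and 4.7 in ORM cells and 4.95 and 4.71 in control cells, and with LYZ and FCER1G dim in all 4 arrays. Their part in the result was not tested. The TREML2 promoter, on the minus strand at chr6:41201150-41201399, is shown because the gene was past the threshold. It held an NFAT match and a match to the cAMP response element core, which 7.42% of promoters held.
TREML2: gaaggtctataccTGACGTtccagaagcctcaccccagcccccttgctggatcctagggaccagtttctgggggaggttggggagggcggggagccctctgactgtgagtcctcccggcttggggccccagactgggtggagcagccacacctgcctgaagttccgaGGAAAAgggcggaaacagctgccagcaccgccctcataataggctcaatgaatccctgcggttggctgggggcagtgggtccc

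CD28, the main costimulatory receptor of T cells, had log2 signals of 9.65 and 9.58 in ORM cells and 9.41 and 9.40 in control cells. The groups did not overlap, and the log2 difference of 0.21 (95% interval -0.17 to 0.59) did not pass the test. CTLA4, its inhibitory counterpart, had 4.08 and 4.06 in ORM cells and 4.12 and 3.93 in control cells, dim in all 4 arrays, as was the costimulatory receptor ICOS, between 2.93 and 3.54. LAG3, an inhibitory receptor related to CD4, had a log2 difference of -0.03. CD69, an early marker of T-cell activation, had 4.56 and 4.34 in ORM cells and 4.61 and 5.56 in control cells, a log2 difference of -0.635 (95% interval -1.38 to 0.11) that was -0.16 without control replicate 2.

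CD48 fell in ORM cells, with the largest difference of the list. It is a GPI-anchored protein of the SLAM family of receptors, which bind each other between blood cells, and its partners are CD244 and CD2. Log2 signals were 7.19 and 7.63 in ORM cells and 7.98 and 9.22 in control cells, with no overlap but with a wider gap between both control arrays than between the nearest arrays of the groups. The log2 difference was -1.19 (standard error 0.40, unadjusted p = 0.0218, adjusted p = 0.428 from limma). It was -0.57 without control replicate 2 (unadjusted p = 0.101 from limma), and -1.81 without control replicate 1. Without ORM replicate 1 or ORM replicate 2 it was -0.97 and -1.41, with unadjusted p of 0.142 and 0.0537 from limma, and by the equal-variance test of the gene alone the unadjusted p was 0.212. The CD48 promoter, on the minus strand at chr1:160711823-160712072, is shown as that of the gene that fell past the threshold. It held 1 GATA match, as did 9.37% of promoters.
CD48: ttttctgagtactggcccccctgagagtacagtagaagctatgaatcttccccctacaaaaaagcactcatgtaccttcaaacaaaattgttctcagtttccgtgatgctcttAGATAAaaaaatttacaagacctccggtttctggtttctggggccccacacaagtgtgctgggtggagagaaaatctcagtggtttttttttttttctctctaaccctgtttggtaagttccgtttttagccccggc

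LY9, another SLAM receptor, had log2 signals of 6.22 and 5.80 in ORM cells and 6.26 and 7.37 in control cells, a log2 difference of -0.805 (95% interval -1.68 to 0.07) that did not pass the test and was -0.25 without control replicate 2. SH2D1A, the adaptor SAP, which links SLAM receptors to FYN, had 9.50 and 9.52 in ORM cells and 9.55 and 9.69 in control cells, a log2 difference of -0.11. SLAMF6 had a log2 difference of -0.07 and CD244 of 0.02, both with overlap, and SLAMF1 and SLAMF7 were dim in all 4 arrays. In the RefSeq gene order the 6 SLAM receptors of the list lie within a run of 8 protein-coding genes of chromosome 1. There LY9 is placed between SLAMF7 and CD244, and CD48 follows directly on SLAMF1. The other genes of the run were not in the list. Beside CD48 and LY9, the log2 differences along this run lay between -0.095 and 0.265 in SLAMF6, SLAMF1, SLAMF7 and CD244, and none passed the test. CD48 and LY9 are also found on B cells. Of 8 markers of B cells, 6 were measured, with a mean log2 signal of 5.98 and 6.02 in ORM cells and 6.24 and 6.28 in control cells, and MS4A1 was dim in all 4 arrays. PAX5 and BLNK were lower in ORM cells, by log2 differences of -0.51 and -0.52 (unadjusted p = 0.0149 and 0.0334 from limma). Of the 6, 5 lay below 0, among them CD79B at only -0.035, and 1 above, MS4A1 at 0.115. CD79A had the highest signal of them, 9.69 and 9.90 in ORM cells and 10.06 and 10.25 in control cells of this T-cell line. The part of these values in the result was not tested.

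Of the kinases and phosphatases, FYN lay higher and PTPRC lower in ORM cells at an unadjusted p under 0.05, and neither reached a fold change of 1.8. FYN, a kinase of the same family as LCK, had log2 signals of 8.67 and 8.56 in ORM cells and 8.06 and 8.21 in control cells. The groups did not overlap, with a log2 difference of 0.48 (standard error 0.16, unadjusted p = 0.0238, adjusted p = 0.428 from limma). It was 0.555 without control replicate 2, 0.405 without control replicate 1 (unadjusted p = 0.0497 from limma) and 0.38 with quantile normalization (unadjusted p = 0.0542 from limma), where the call was lost. PTPRC, the phosphatase CD45 that keeps LCK and FYN ready for activation, had 11.26 and 11.17 in ORM cells and 11.54 and 11.77 in control cells. Its log2 difference was -0.44 (standard error 0.17, unadjusted p = 0.0381, adjusted p = 0.428 from limma) and -0.325 without control replicate 2 (unadjusted p = 0.0782 from limma). The call was also lost with centring (unadjusted p = 0.0635 from limma) and by the equal-variance test of the gene alone (unadjusted p = 0.0705).

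LCK itself, which starts the signal, had 11.57 and 11.62 in ORM cells and 11.66 and 11.47 in control cells. The groups overlapped, and the log2 difference was 0.03 (95% interval -0.37 to 0.43). ZAP70, the kinase recruited to the phosphorylated chains, had 8.82 and 9.01 in ORM cells and 8.90 and 9.31 in control cells, and SYK, its relative, had 7.54 and 7.30 in ORM cells and 7.25 and 7.53 in control cells. Both overlapped between the groups, with log2 differences of -0.19 and 0.03. CSK, the kinase that inhibits LCK and FYN, had a log2 difference of 0.02, and PTPN22, a phosphatase that acts with it, of 0.18.

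None of the 6 measured adaptors passed the test, and in all 6 the groups overlapped, while they did not in 45.6% of all probe sets. LAT, the membrane scaffold of the signal, had log2 signals of 9.26 and 9.03 in ORM cells and 9.41 and 9.14 in control cells. LCP2, the cytosolic scaffold that works with it, had 9.99 and 9.77 in ORM cells and 10.07 and 9.89 in control cells. Both lay slightly lower in ORM cells, with log2 differences of -0.13 (95% interval -0.57 to 0.31) and -0.10 (95% interval -0.52 to 0.32). PAG1, which holds CSK at the membrane, had the smallest p of the adaptors, with 5.61 and 6.36 in ORM cells and 5.63 and 5.50 in control cells. Only ORM replicate 2 was high, and the log2 difference of 0.42 had a 95% interval of -0.21 to 1.05. TRAT1, SIT1 and THEMIS, which tune the signal of the receptor, had log2 differences of -0.065, -0.155 and -0.13. The ubiquitin ligases CBL and CBLB and the inhibitor UBASH3A, which end the signal, had differences between -0.06 and 0.025. CBLB had the smallest p of these, with log2 signals of 7.32 and 7.16 in ORM cells and 7.22 and 7.38 in control cells, which overlapped.

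MALT1 rose in ORM cells and was the gene of the list with the smallest p. It is the protease and scaffold that, with BCL10, links the receptor to NF-κB. Log2 signals were 7.91 and 7.54 in ORM cells and 6.86 and 6.88 in control cells. Both ORM arrays lay well above a pair of control arrays that differed by 0.02, and the difference was about the same from either control array, 0.865 from control replicate 1 and 0.845 from control replicate 2. The log2 difference of 0.855 (standard error 0.19, 95% interval 0.41 to 1.30, unadjusted p = 0.00303, adjusted p = 0.428 from limma) is a fold change of 1.81, just past the threshold. With quantile normalization it was 0.835, without control replicate 1 it was 0.845 and without ORM replicate 1 it was 0.67 (unadjusted p = 0.0426 from limma), all under a fold change of 1.8, and with centring on the median it was 0.9075. Its partner BCL10 had a log2 difference of 0.075 (95% interval -0.34 to 0.49). The MALT1 promoter, on the plus strand at chr18:58671215-58671464, is shown as that of the second gene that rose past the threshold. It held 0 matches to the 7 motifs and 30 CG pairs, against 4 in CD48, 4 in CD3D, 3 in CD247 and 7 in TREML2, and a median of 11 over all promoters.
MALT1: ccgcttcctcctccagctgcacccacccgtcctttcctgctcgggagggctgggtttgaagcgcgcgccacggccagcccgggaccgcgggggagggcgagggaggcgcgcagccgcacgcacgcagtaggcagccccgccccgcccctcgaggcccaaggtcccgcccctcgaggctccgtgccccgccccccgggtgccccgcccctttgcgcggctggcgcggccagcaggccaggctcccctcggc

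NFATC2, a calcium-dependent transcription factor downstream of the receptor, had log2 signals of 7.17 and 7.23 in ORM cells and 7.46 and 7.90 in control cells. The groups did not overlap, and the log2 difference was -0.48 (standard error 0.20, unadjusted p = 0.0486, adjusted p = 0.437 from limma), or -0.26 without control replicate 2 (unadjusted p = 0.118 from limma). The unadjusted p was 0.0771 with centring and 0.163 by the equal-variance test of the gene alone. NFATC1 and NFATC3 of the same family had log2 differences of -0.27 and 0.23 that did not pass the test. NFATC1 rested on control replicate 2, being at -0.02 without it and at -0.52 without control replicate 1 (unadjusted p = 0.0299 from limma). RASGRP1, which activates Ras, was lower at -0.34 and VAV1, which activates Rac, higher at 0.23, both without overlap and neither past the test. PLCG1, the phospholipase that starts the calcium signal, had a log2 difference of 0.035.

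The distance of the ORM arrays from the controls depended on the control array for several genes, in no larger a share than over all probe sets. The control arrays differed from each other by over 0.5 in 7 of 48 genes (14.6%, against 18.9% of all probe sets). These were CD4, CD48, TREML2, LY9, CD69, THEMIS and SLAMF6. Without control replicate 2, THEMIS and SLAMF6 had log2 differences of 0.30 and 0.195, against -0.13 and -0.07 with all 4 arrays. ZAP70 likewise was at 0.015 without it. The ORM arrays differed by as much in 1 gene, PAG1 (2.08%, against 5.07% of all probe sets). The groups did not overlap in 21 of 48 genes (43.8%, against 45.6% of all probe sets), with the ORM arrays higher in 11 and lower in 10. This share was close to that of all probe sets. When 1 array is left out, the array that stands alone in its group is assumed to vary like the other group. Without ORM replicate 1 or ORM replicate 2, the 5 genes past an unadjusted p of 0.05 alone (CD3D, FYN, CD247, PTPRC and NFATC2) kept log2 differences of the same sign, with unadjusted p of 0.0629 to 0.197 from limma. MALT1, CD3D and FYN lay at a log2 difference of 0.405 or more from either control array, and CD48, CD247 and PTPRC at -0.325 or less.

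**Figure D3:**
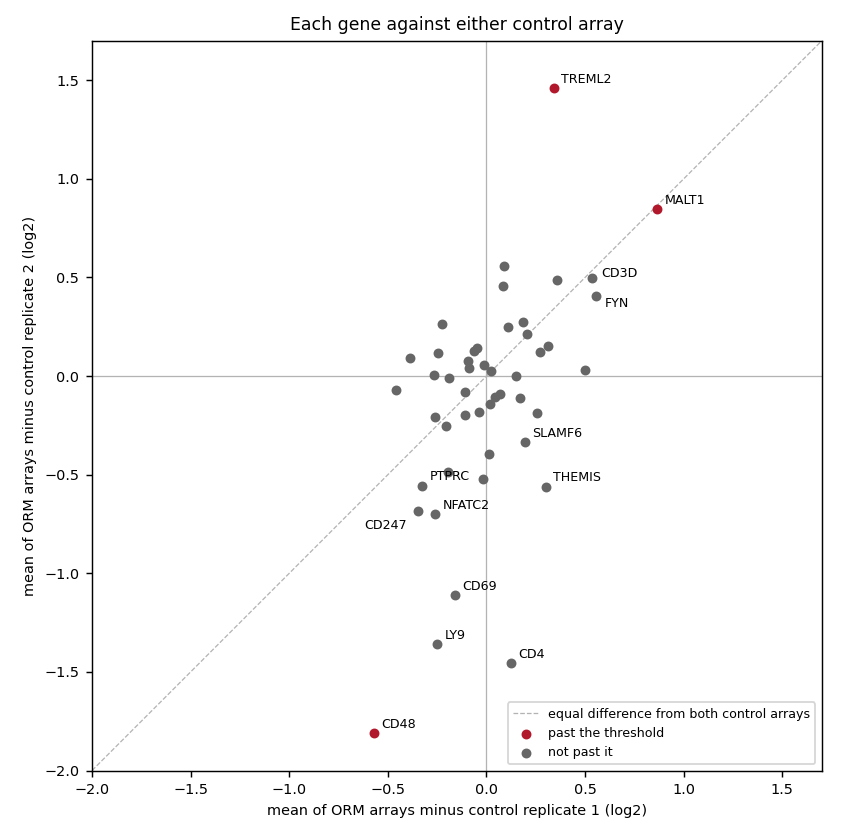
Mean of the ORM arrays minus control replicate 1 (x axis, log2) against the same minus control replicate 2 (y axis, log2) for the 48 measured genes, with the dashed line of equal difference. MALT1, CD3D and FYN lie near the line, while TREML2 (0.34 and 1.46), CD48 (-0.57 and -1.81), LY9 (-0.25 and -1.36) and CD4 (0.125 and -1.455) lie far from it.

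**Figure D4:**
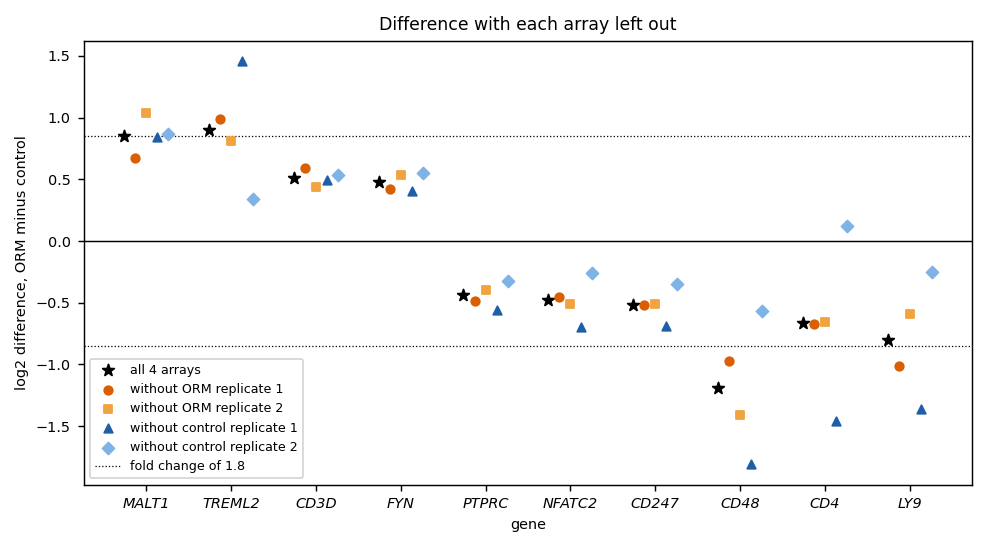
Log2 difference (ORM minus control) of 10 genes with all 4 arrays (star) and with each array left out in turn, dotted lines marking a fold change of 1.8. CD3D and FYN stay between 0.405 and 0.59, whereas CD4 changes sign and CD48 comes within the lines when control replicate 2 is left out, and TREML2 does so without control replicate 2 or ORM replicate 2.

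The 48 genes also differed in promoter type, which the choice of the list did not use. A promoter entry in RefSeq was found for 34 of them, and for 10 of these, which have several starts, the first listed start was taken. All 8 effectors and transcription factors had an entry, with a median of 28 CG pairs in 250 bases (range 7 to 41). The 5 SLAM family promoters had a median of 3 (range 1 to 4) and the 5 adaptors of 3 (range 0 to 6). Over the 34 promoters the NFAT letters were found in 9 (26.5%) and the RUNX letters in 5 (14.7%), against 21.4% and 10.9% of all promoters. The TCF/LEF letters were in 5 (14.7%, against 11.4%) and the core of the cAMP response element in 3 (8.82%, against 7.42%). The other way went ETS, in 2 (5.88%, against 14.8%), GATA, in 2 (5.88%, against 9.37%), and TATA, in 3 (8.82%, against 11.1%). None of these shares was tested. CD3E, CD3D and CD3G are direct neighbours on chromosome 11, and the log2 differences of all 3 were above 0. CD28, CTLA4 and ICOS are neighbours on chromosome 2, with log2 differences between 0.045 and 0.27 of which none passed the test (CTLA4 was at -0.05 without control replicate 2), and LAG3 and CD4 on chromosome 12.

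Other genes of the pathway were taken from 3 lists of 125 genes in all, of which 106 had a probe set. Only 1 of the 106 passed the threshold (0.943%, against 0.704% of all probe sets), and 8 had an unadjusted p under 0.05 (7.55%, against 11.4%), 2 higher and 6 lower. Of 55 further signalling genes none passed the threshold, and the members with the smallest p were CHUK and MAPK3. CHUK, an IκB kinase of the NF-κB route, had log2 signals of 6.58 and 6.79 in ORM cells and 6.02 and 5.89 in control cells, a log2 difference of 0.73 (standard error 0.17, unadjusted p = 0.00422, adjusted p = 0.428 from limma). MAPK3, the kinase ERK1, had 9.54 in both ORM arrays and 10.00 and 10.14 in control cells, a log2 difference of -0.53 (standard error 0.16, unadjusted p = 0.0143, adjusted p = 0.428 from limma). CHUK lay above and MAPK3 below both control arrays. Of 27 further receptors and ligands none passed. CD52, a small GPI-anchored surface protein, had 5.42 and 5.53 in ORM cells and 6.05 and 6.06 in control cells, and SLAMF9 had 3.77 and 3.90 in ORM cells and 4.52 and 4.35 in control cells. Their log2 differences were -0.58 and -0.60.

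Of 24 measured genes that T cells switch on after activation, 1 passed the threshold (4.17%, against 0.704% of all probe sets). XCL1, a chemokine that attracts dendritic cells, fell, with log2 signals of 3.63 and 3.47 in ORM cells and 4.24 and 4.85 in control cells. The groups did not overlap, but the ORM arrays and control replicate 1 were dim, and only control replicate 2 lay above its lower quartile of 4.26. The log2 difference was -0.995 (standard error 0.23, unadjusted p = 0.00447, adjusted p = 0.428 from limma), and -0.69 without control replicate 2, which is under a fold change of 1.8. By the equal-variance test of the gene alone the unadjusted p was 0.0875. XCL1 has a near-identical copy, XCL2, whose probe set was dim in all 4 arrays with a log2 difference of -0.09, and signal of the 2 genes may not be fully separated. DUSP6, a phosphatase of ERK, had a log2 difference of -0.485 (unadjusted p = 0.038 from limma). Of the 24 genes, 10 had log2 differences above 0 and 14 below, between -0.995 and 0.455, with a median of -0.115. Over all 21448 probe sets, 9514 lay above 0 and 11767 below, with a median of -0.035. The control arrays differed from each other by over 0.5 in 9 of the 24 (37.5%, against 18.9% of all probe sets).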

How the data were processed

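RNA of 2 ORM and 2 control samples was read on human Clariom S arrays. The deposited values are log2 signals per probe set, normalized by the authors, and were used unchanged. RMA and Transcriptome Analysis Console are named in the processing notes of the submitters, with no version. RNA extraction is described by 1 procedure in the labels and by another in the study's supplement. Array number limits the precision.

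All 21448 probe sets were tested with limma 3.58.1 (lmFit, eBayes) in R 4.3.3, with no filter and Benjamini-Hochberg adjustment over all of them. The platform annotation gave 1 symbol for 17709 probe sets and none for 3739. In simulated arrays the threshold (1.8-fold and unadjusted p under 0.05 from limma) recovered 10.9% of probe sets changed 1.5-fold, 76.4% changed 2-fold and 99.3% changed 3-fold. These arrays were independent and had the same spread in both groups. In the data the control arrays differed more (SD 0.404) than the ORM arrays (SD 0.248), so that these shares need not hold there.

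The members and lists were chosen with earlier results of these data known. Values in each array were given for members past the threshold or with an unadjusted p under 0.05, for the member of smallest p in the other classes and for 16 members fixed by name; of each further list, for genes past the threshold or the 2 of smallest p. A few others were added after their values were seen (CD5, CD69, LY9, SH2D1A and, in the further lists, XCL2, DUSP6, GATA3, PAX5 and BLNK). The alternatives were quantile normalization, median centring, a mean log2 signal of at least 5, a t-test with equal variances for each probe set alone (the study's general test for 2 groups, not stated for the arrays), trend and robust settings, a replicate block, other thresholds, the mean of a gene's probe sets and each array left out.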

Additional observations from a re-analysis of the deposited data

How the results depend on the processing

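With all 4 arrays 151 probe sets, 3 receptor and signalling genes and 1 further pathway gene passed the threshold, 8 of the former had an unadjusted p under 0.05 and their median log2 difference was -0.0275. Leaving out 1 array gave 100 to 1009 probe sets, 0 to 5 genes of the list past the threshold, 1 to 15 with an unadjusted p under 0.05, medians of -0.0225 to 0 and 0 to 7 further pathway genes. The 5 genes without control replicate 1 were CD4, CD48, CD69, LY9 and TREML2, and the 1 gene without control replicate 2 or without ORM replicate 2 was MALT1. The equal-variance t-test passed 49 probe sets, 1 gene of the list (MALT1) and 0 further genes. A fold change over 1.5 passed 941 probe sets and 3 further genes, and one over 2 passed 68 probe sets, 1 gene of the list (CD48) and 0 further genes. An unadjusted p under 0.01 left 1 gene of the list by either rule, MALT1, and 1.99% of all probe sets by p alone. Requiring a mean signal of 5 (log2) or more left 0 further genes, since XCL1 lay below it. The median was -0.0591 with quantile normalization and 0.025 with centring on the median, a change of sign within 0.06. Over all probe sets the median was -0.0025 and 0.0175 in these settings, and -0.035 in the main fit. The replicate block gave 162 probe sets and 3 genes of the list past the threshold. With it 7 genes of the list had an unadjusted p under 0.05, without PTPRC, against 10.4% of all probe sets. Same-numbered arrays hardly deviated together over all probe sets (correlation 0.0929), and the main fit took them as unpaired. This correlation cannot show whether same-numbered samples were handled together. Of the 48 genes and XCL1, 26 kept their sign in all 14 settings. Only quantile normalization, centring and leaving out an array could change a sign. The other settings kept each log2 difference as it was or dropped the gene. Of the 23 that changed sign, the largest difference was that of CD4.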
